A study of Mus musculus with 6 samples.

Results

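Complement is a cascade of serum and tissue proteins that marks cells, debris and synapses for removal. In its classical branch the recognition molecule C1q, built from A, B and C chains, starts the cleavage of C4 and C3. The fragments are read by phagocytes through receptors, and C1 inhibitor holds the first step in check. In the central nervous system C1q and the complement receptors are known mainly as products of microglia and other macrophages, while C3, C4 and C1 inhibitor can also come from astrocytes, fibroblasts and other cells. The 9 genes described here, of 31266 quantified, were given as a list by symbol: the C1q chains C1qa, C1qb and C1qc, the cleaved components C3 and C4b, the receptors C3ar1, C5ar1 and Itgam, and the regulator Serping1. They were found in the GENCODE annotation and matched by position to the assembled transcripts. All 9 were quantified, and 7 passed the filter for testing, an average level of at least 1 FPKM, while Itgam and Serping1 did not. FPKM is a level scaled for transcript length and for the total of mapped fragments.

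The RNA came from oligodendrocyte precursor cells (OPCs), dividing glia from which myelinating oligodendrocytes arise. There were 3 libraries labelled Gde3 KO and 3 labelled Gde3 WT, all on the C57BL/6 background. All cells came from spinal cords of P0.5 pups and were selected with magnetic beads against A2B5, a ganglioside epitope on glial precursors. Culture of both genotypes lasted 16 h, in medium for proliferation that held PDGF at 10 ng/mL, CNTF at 10 ng/mL and forskolin at 5 µM. GDE3, the product of Gdpd2, cuts the lipid anchor of glycosylphosphatidylinositol (GPI)-anchored proteins at the cell surface. Nothing in the labels says how the KO allele was made, or whether the replicates of a genotype are different animals, so a p-value covers only variation among these libraries, part of which may be technical.

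Several properties of the libraries bear on all values below. Gdpd2, the targeted gene, was at 0.667, 1.497 and 1.78 FPKM in KO replicates 1 to 3, against 0, 2.79 and 2.85 FPKM in WT, so its level alone did not separate the labels. Its exon 9 was assembled over 0% of its length in all 3 KO libraries and over 100% in all 3 WT libraries, counting transcripts of any length; KO replicate 1 also lacked exons 7 and 13 to 15, and WT replicate 1 had pieces of exons 8 to 10 alone. The number of reads is unknown; depths relative to the deepest library, from transcript coverage, were 0.883 to 0.988 in KO and 0.76 to 1 in WT. The WT replicate 1 assembly was fragmented, its transcripts having a median of 438 nt, where the other 5 assemblies had 1173 to 1830 nt, and it alone had Xist (15.4 FPKM) and lacked Ddx3y (0, against 6.96 to 9.90 FPKM), which are markers of female and male tissue. Both replicate 1 libraries, KO at 14.2 and WT at 12.1 FPKM, stood apart in the proliferation gene Mki67 from the other 4 libraries at 67.4 to 73.7 FPKM. All 10 OPC markers used to check the label passed the filter, and Olig1, a transcription factor of the lineage, was at 415 to 518 FPKM in KO and 356 to 513 FPKM in WT. Markers of other cell types were present as well: those of microglia and macrophages summed over 20 genes to 253, 355 and 369 FPKM in KO replicates 1 to 3, against 189, 215 and 245 FPKM in WT replicates 1 to 3.

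The question for these genes was whether the KO and WT libraries differ in their RNA. The 3 C1q chains and the receptor gene C3ar1 were higher in every KO library than in any WT library, by 1.87 to 2.64 times in mean FPKM. For C3ar1 this separation was lost when values were averaged over assembled bases only. C5ar1, Itgam and C3 had higher means in KO with overlapping libraries, and C4b and Serping1 did not separate the genotypes. No member passed the test over all genes: 0 of 7 tested members had a limma adjusted p under 0.05, where 0% of all 12045 tested genes passed as higher and 0.0083% (1 gene, no member) as lower. At an unadjusted limma p under 0.05, 4 of 7 tested members were higher in KO, against 0.913% of all genes, and 0 were lower, against 0.706%. With the replicate block 5 of 7 were higher at that level (C5ar1 in addition), against 2.42%, and without KO replicate 3 the 3 C1q chains were, against 0.633%. The same 4 were those without overlap between genotypes, where 2.03% of all tested genes had every KO library above every WT library; 0 members had every KO library below, against 3.03% of all genes. The median log2 difference of the 7 tested members was 0.70, and that of all tested genes was -0.0055. Members were chosen with earlier results of these data known, so these counts describe the list and do not test it.

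**Figure D1:**
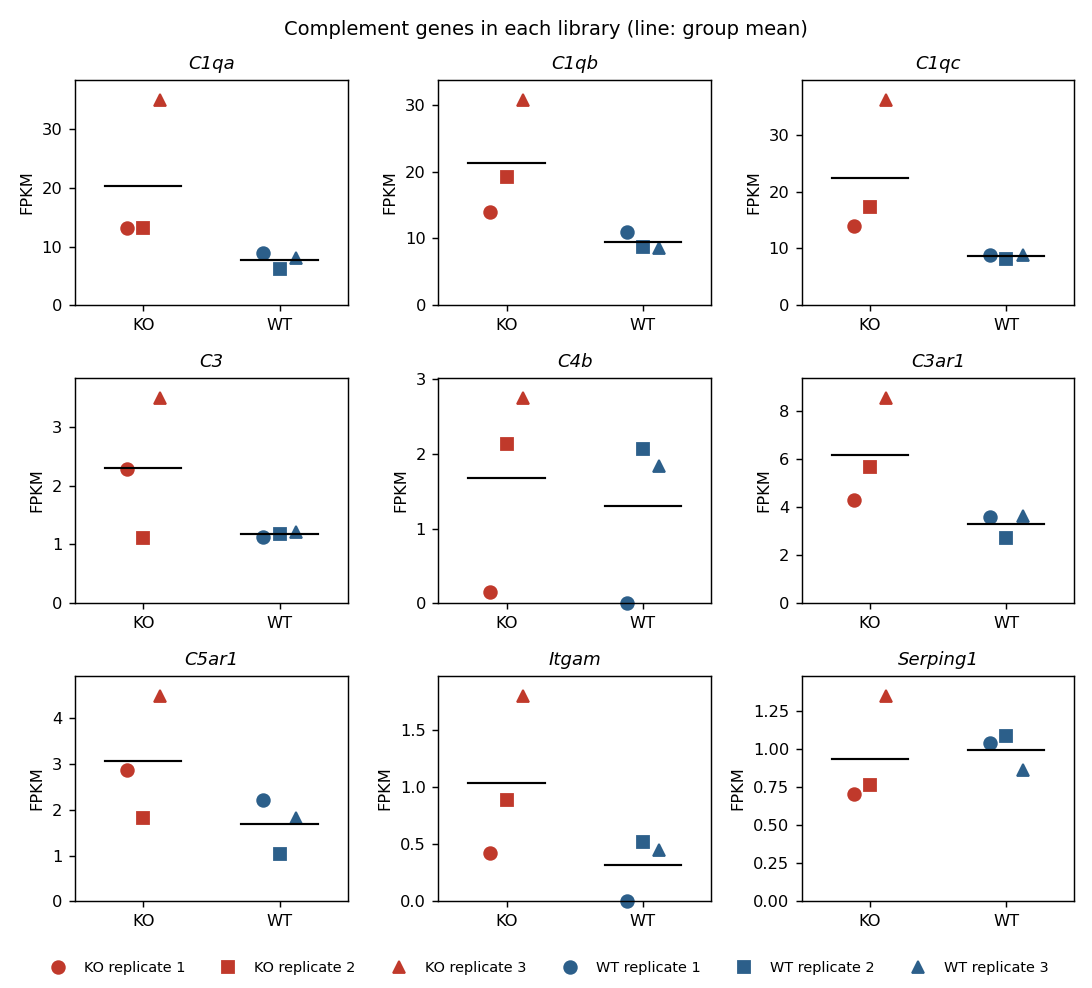
Level of each complement gene in FPKM (vertical axes, linear from 0) in the 3 KO libraries (left, red) and the 3 WT libraries (right, blue), with the symbol shape giving the replicate number and the line the group mean. In C1qa, C1qb, C1qc and C3ar1 all red symbols lie above all blue ones, and KO replicate 3 (triangle) is the highest of the 6 libraries in every panel.

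The C1q chains are encoded side by side on the minus strand of chromosome 4, over 18.7 kb (mm10, 136880129 to 136898803), in the order C1qb, C1qc and C1qa. Each has 3 exons. C1qa (ENSMUSG00000036887.5), the A chain, was at 13.2, 13.1 and 34.8 FPKM in KO replicates 1 to 3, against 8.87, 6.11 and 8.12 FPKM in WT replicates 1 to 3. C1qb (ENSMUSG00000036905.8), the B chain, was at 14.0, 19.2 and 30.6 FPKM in KO, against 10.9, 8.77 and 8.65 FPKM in WT. C1qc (ENSMUSG00000036896.5), the C chain, was at 13.9, 17.2 and 36.0 FPKM in KO, against 8.87, 8.21 and 8.79 FPKM in WT. The WT libraries lay close together for all 3 chains, whereas KO replicate 3 was well above KO replicates 1 and 2, and no KO library reached down to the WT range.

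On the log2(FPKM + 1) scale, which understates the change of low genes, the differences of KO minus WT were 1.16 ± 0.39 for C1qa, 1.03 ± 0.28 for C1qb and 1.17 ± 0.34 for C1qc (limma SE). The limma adjusted p was 0.9999 for each, and the unadjusted p was 0.0246, 0.0099 and 0.0129 in that order. With the replicate number as a block the limma adjusted p was 0.809 for each chain. Without KO replicate 3 the differences fell to 0.71, 0.74 and 0.78, and the limma adjusted p was 0.9995 for each. Without both replicate 1 libraries they were 1.48, 1.38 and 1.45, and within the replicate 1 pair each chain was again higher in the KO library. The direction was therefore present in both sets of libraries that the identifiers in the labels number 3 and 4, and its size depended on KO replicate 3.

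C1qa and C1qb were nearly complete in all 6 assemblies, and C1qc less so. In every library each chain was assembled as a spliced transcript with both annotated junctions, and for C1qa the KO assemblies covered 90.7% to 99.8% of the exonic bases and the WT assemblies 98.4% to 99.5%. For C1qb the coverage was 94.8% to 99.5% in KO libraries and 96.0% to 99.6% in WT libraries. For C1qc it was 77.0% to 83.7% in KO libraries and 78.6% to 88.6% in WT libraries. The gap in C1qc lay partly at its 5′ end, where the assemblies began 79 to 161 nt inside the GENCODE gene but near the RefSeq start. Averaged over assembled bases only, the log2 differences were 1.22, 1.06 and 1.23 for C1qa, C1qb and C1qc. In the authors' assembly each C1qa transcript also carries an interval for its FPKM, which covers error within that library alone. The lowest in KO was 11.96 to 14.2 (replicate 2) and the highest in WT 7.95 to 10.1 (replicate 1), so the intervals of the genotypes did not meet. For C1qb the nearest intervals, 13.6 to 16.0 in KO replicate 1 and 9.84 to 12.1 in WT replicate 1, did not meet either. C1qc in WT replicate 3 was assembled as a pair of transcripts, at 6.13 and 4.38 FPKM, the second with a junction that is not annotated.

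**Figure D2:**
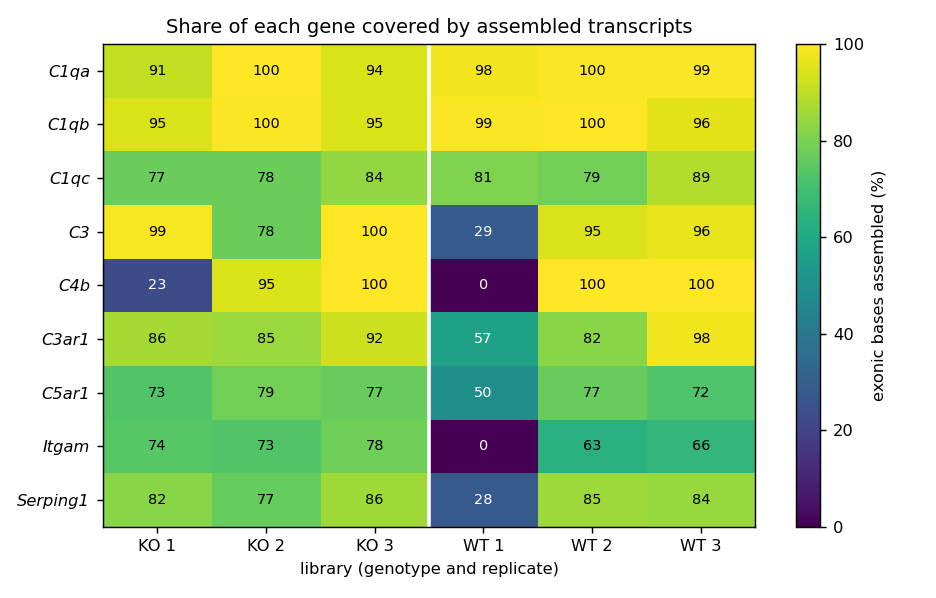
Share of each gene's exonic bases (those that no other gene shares) that assembled transcripts of 300 nt or more covered, in percent, for the 9 complement genes (rows) in the KO libraries (3 left columns) and WT libraries (3 right columns). The C1q rows are above 76% in every library, while C3, C4b, Itgam and Serping1 drop below 30% in WT replicate 1 and C4b also in KO replicate 1.

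The proportions of the chains to each other overlapped between genotypes. C1qa stood at 0.938, 0.681 and 1.14 times the C1qb level in KO replicates 1 to 3, against 0.812, 0.696 and 0.939 times in WT. C1qc stood at 0.990, 0.897 and 1.18 times C1qb in KO, against 0.813, 0.935 and 1.02 times in WT. Within a library the 3 chains were thus within 1.5-fold of each other, and they were ranks 1 to 3 among the 9 complement genes in all 6 libraries. The nearest tested genes on either side of the cluster overlapped between genotypes. Ephb2, a receptor tyrosine kinase gene, was at 9.24 to 10.2 FPKM in KO and 7.83 to 9.92 FPKM in WT (difference in log2 of 0.08 ± 0.12 SE, limma adjusted p = 0.9999). Zbtb40, a zinc finger gene, was at 3.83 to 4.47 FPKM in KO and 4.04 to 4.31 FPKM in WT (difference in log2 of 0.0067 ± 0.11 SE, limma adjusted p = 0.9999).

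Because C1q chains differed together, their start regions are shown. RefSeq windows of 250 bases before to 50 after the start site (GRCm38.p6, the same assembly as mm10) matched 6 of the 9 genes, and C1qa, C4b and Serping1 were not among them. The windows were searched on both strands for GAGGAA, the core of sites for the myeloid factor PU.1, for GAAA followed after any 2 bases by GAAA, the interferon-stimulated response element, for TTGCNNAA, a C/EBP site, and for TATAAA, the TATA box. Of 32851 windows in the table, 28.3%, 3.44%, 10.8% and 13.6% hold these motifs in that order, and no match in the members' windows overlapped another. Matches are in capitals; they describe letters and not binding.
C1qb, chr4:136886151-136886450, minus strand: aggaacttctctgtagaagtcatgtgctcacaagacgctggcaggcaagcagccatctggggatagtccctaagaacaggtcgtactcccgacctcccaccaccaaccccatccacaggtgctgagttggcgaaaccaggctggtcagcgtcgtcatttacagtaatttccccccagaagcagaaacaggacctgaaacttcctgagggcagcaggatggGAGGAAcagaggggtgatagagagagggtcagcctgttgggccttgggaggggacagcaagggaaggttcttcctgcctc
C1qc, chr4:136892865-136893164, minus strand: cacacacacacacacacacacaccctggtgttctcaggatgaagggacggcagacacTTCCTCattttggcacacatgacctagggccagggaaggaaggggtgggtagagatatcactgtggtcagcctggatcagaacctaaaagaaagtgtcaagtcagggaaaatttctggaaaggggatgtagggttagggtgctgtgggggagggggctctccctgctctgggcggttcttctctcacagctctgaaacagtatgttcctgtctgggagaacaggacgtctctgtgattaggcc
C1qb held a single GAGGAA, beginning at position -30 from the RefSeq start, and C1qc held it once on the opposite strand, beginning at -193. None of the other 3 motifs was in either window. The assembled 5′ ends fell inside both windows: for C1qb they lay 1, 3 and -207 bases downstream of the RefSeq start in KO replicates 1 to 3 and 14, 12 and -39 bases in WT (negative values are upstream), and for C1qc 0, -4 and -48 bases in KO and 10, -19 and -72 bases in WT.

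The receptors differed from C1q in level and, for some, in how the genotypes separated. C3ar1 (ENSMUSG00000040552.8, chromosome 6, 122847138 to 122856161, minus strand) encodes the receptor for the C3a fragment. It was at 4.32, 5.69 and 8.53 FPKM in KO replicates 1 to 3, against 3.58, 2.71 and 3.61 FPKM in WT. Every KO library was above every WT library, and KO replicate 1 lay nearest to the WT range. The log2 difference was 0.70 ± 0.24 SE (limma adjusted p = 0.9999; 0.809 with the replicate block). It was 0.48 without KO replicate 3 and 0.56 over assembled bases only. C3ar1 came in a pair of pieces in 4 libraries, and WT replicate 1 covered 57.1% of its exonic bases, against 84.8% to 92.3% in KO and 82.2% and 97.9% in WT replicates 2 and 3.
C3ar1, chr6:122856108-122856407, minus strand, shown to set beside the C1q windows: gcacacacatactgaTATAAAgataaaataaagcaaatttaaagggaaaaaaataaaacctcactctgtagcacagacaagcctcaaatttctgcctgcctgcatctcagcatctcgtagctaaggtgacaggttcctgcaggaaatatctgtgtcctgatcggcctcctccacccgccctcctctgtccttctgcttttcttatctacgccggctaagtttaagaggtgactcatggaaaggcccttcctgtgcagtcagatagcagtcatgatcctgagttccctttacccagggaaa
It held no GAGGAA and a single TATAAA, far from the start at -235. Assembled 5′ ends lay 8, 0 and -16 bases downstream of the RefSeq start in KO and 96, 63 and 13 bases in WT.

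C5ar1 (ENSMUSG00000049130.6, chromosome 7, 16246743 to 16259540, minus strand) encodes the receptor for C5a, which draws in and activates myeloid cells. It was at 2.88, 1.83 and 4.48 FPKM in KO replicates 1 to 3, against 2.21, 1.04 and 1.82 FPKM in WT. KO replicate 2 lay below WT replicate 1, so the genotypes overlapped, and within each same-numbered pair the KO library was higher. The log2 difference was 0.57 ± 0.30 SE (limma adjusted p = 0.9999; 0.809 with the replicate block). WT replicate 1 held 2 further C5ar1 fragments, of 150 and 240 nt, that the 300 nt minimum left out, and with every length counted the log2 difference was 0.24. With FPKM summed over transcripts it was -0.65, so its direction depends on how those fragments are counted. No motif was found in its window.

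Itgam (ENSMUSG00000030786.18, chromosome 7, 128062640 to 128118491, plus strand) encodes CD11b, the alpha chain of complement receptor 3, which binds cleaved C3 on targets. Only 30.0% of its exonic bases are free of the overlapping annotated gene Gm49368, and 72.4% of its 50 nt windows also occur in transcripts of that gene, so reads of these genes cannot be told apart there. Over the free bases it was at 0.427, 0.885 and 1.80 FPKM in KO replicates 1 to 3, against 0, 0.517 and 0.452 FPKM in WT. KO replicate 1 lay below both WT replicates 2 and 3, and the 0 of WT replicate 1 means that no transcript of 300 nt or more covered these bases. With a mean of 0.680 FPKM it was not tested. Its RefSeq window held GAGGAA 3 times and none of the other motifs. Its partner Itgb2, the beta chain of the same receptor, was at 7.43, 4.91 and 9.87 FPKM in KO, against 6.69, 2.77 and 4.55 FPKM in WT, with overlap between genotypes (difference in log2 of 0.58 ± 0.33 SE, limma adjusted p = 0.9999).

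Downstream of C1q, the cleaved components were near the filter. C3 (ENSMUSG00000024164.15, chromosome 17, 57203970 to 57228136, minus strand), the central component of all branches, was at 2.29, 1.11 and 3.48 FPKM in KO replicates 1 to 3, against 1.12, 1.18 and 1.22 FPKM in WT. KO replicates 1 and 3 were above all WT libraries and KO replicate 2 below them all. The log2 difference was 0.53 ± 0.29 SE (limma adjusted p = 0.9999). This gene was sensitive to assembly: all 40 annotated junctions were present in KO replicates 1 and 3 and in WT replicate 3, against 30 in KO replicate 2, 38 in WT replicate 2 and 8 in WT replicate 1. WT replicate 1 was covered over 29.1% of the gene. With transcripts of any length counted the log2 difference was -0.10, and with FPKM summed over transcripts -1.58, so no direction can be given for C3.
C3, chr17:57228087-57228386, minus strand, shown for its TATA box, near which most assemblies began: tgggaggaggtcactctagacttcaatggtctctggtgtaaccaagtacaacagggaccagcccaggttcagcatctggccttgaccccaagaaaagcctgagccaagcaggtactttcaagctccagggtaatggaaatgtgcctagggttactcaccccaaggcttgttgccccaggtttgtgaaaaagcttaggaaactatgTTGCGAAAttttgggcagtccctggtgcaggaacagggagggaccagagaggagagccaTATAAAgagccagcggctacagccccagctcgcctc
The single TATAAA began at 15 bases into the RefSeq transcript, and a TTGCNNAA match at -45. Assembled C3 transcripts began 44, 39 and 2 bases downstream of the first base of this TATAAA in KO replicates 1 to 3 and 37 and 43 bases downstream in WT replicates 2 and 3. In WT replicate 1 no piece reached this region.

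C4b (ENSMUSG00000073418.4, chromosome 17, 34728380 to 34743882, minus strand), mouse complement C4, was at 0.158, 2.14 and 2.75 FPKM in KO replicates 1 to 3, against 0, 2.07 and 1.84 FPKM in WT. Both replicate 1 libraries were low and the other 4 were at similar levels, so replicate 1 stood apart in both genotypes (difference in log2 of 0.21 ± 0.62 SE, limma adjusted p = 0.9999). It changed sign without KO replicate 3 (-0.11) or WT replicate 1 (-0.31). No fragment of any length was assembled in WT replicate 1, and KO replicate 1 covered 22.8% of the gene in 2 pieces. C4b shares 35.2% of its 50 nt windows with its paralog C4a, so its level is uncertain to that extent; C4a was at 0.0539, 0.409 and 0 FPKM in KO and 0, 0.241 and 0 FPKM in WT. The other 7 members besides C4b and Itgam shared 0% of such windows with transcripts of other genes.

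Serping1 (ENSMUSG00000023224.12, chromosome 2, 84765387 to 84775444, minus strand) encodes C1 inhibitor, which inactivates the proteases bound to C1q. It was at 0.703, 0.761 and 1.35 FPKM in KO replicates 1 to 3, against 1.04, 1.09 and 0.861 FPKM in WT. KO replicates 1 and 2 lay below all WT libraries and KO replicate 3 above them. With a mean of 0.967 FPKM it was not tested, and its log2 difference was -0.06. WT replicate 1 covered 28.3% of the gene.

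Set side by side, the median log2 difference was 1.16 for the C1q chains, 0.59 for the receptors, 0.37 for C3 and C4b and -0.06 for Serping1. The receptor median is the value of Itgam, which was not tested and is listed at 0 in WT replicate 1. Over the 2 tested receptors the median was 0.64. The mean log2(FPKM + 1) level of the chains was 3.88, 4.11 and 5.12 in KO replicates 1 to 3, against 3.39, 3.11 and 3.25 in WT. That of the 3 receptors was 1.63, 1.72 and 2.40 in KO, against 1.29, 1.17 and 1.41 in WT. Both groups thus lay higher in every KO library than in any WT library. The summed C1q level divided by that of C3ar1 was 9.51, 8.70 and 11.9 in KO, against 7.998, 8.53 and 7.08 in WT; divided by C5ar1 it was 14.3, 27.1 and 22.6 in KO, against 12.96, 22.2 and 14.1 in WT. The larger median of the chains than of the receptors was not tested, and the pseudocount weighs more on low genes. With a pseudocount of 0.1 in place of 1 the medians were 1.24 for the chains and 0.84 for the receptors, and the ratios of mean FPKM in KO over WT were 2.25 to 2.64 for the chains, 1.87 for C3ar1, 1.81 for C5ar1 and 3.21 for Itgam, which is listed at 0 in WT replicate 1. Itgam, at 1.62 with the pseudocount of 0.1, was thus above the chains on both of these scales. The receptor median was 0.33 without KO replicate 3, and -0.21 with FPKM summed over transcripts, both again the value of Itgam. The order of levels was C1q chains, then C3ar1, in all 6 libraries; C5ar1, C3, C4b, Serping1 and Itgam followed in an order that changed between libraries.

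**Figure D3:**
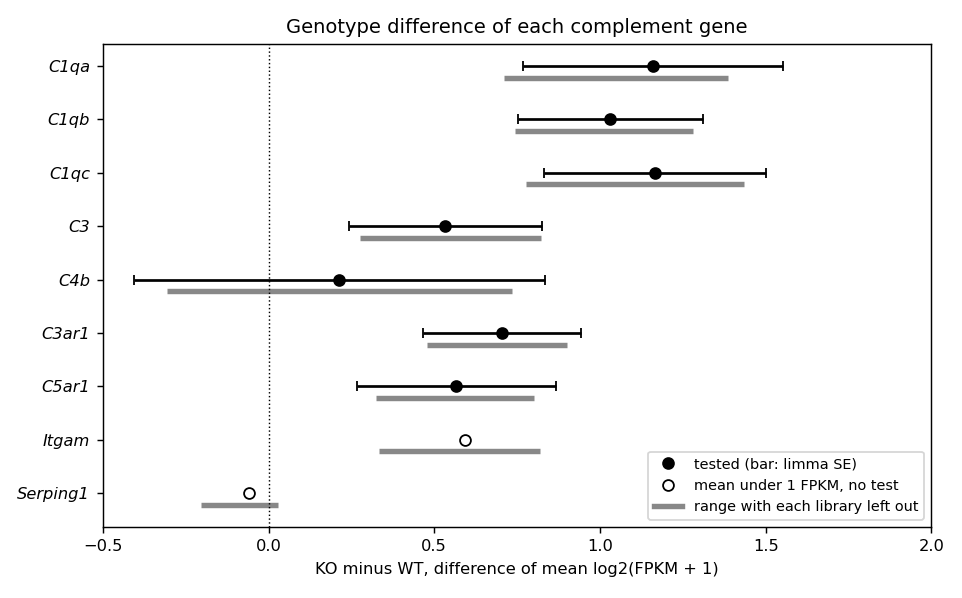
KO minus WT difference of mean log2(FPKM + 1) for each complement gene (horizontal axis), with limma SE for the 7 tested genes, open symbols for Itgam and Serping1, and grey bars for the range when each library is left out in turn. The C1q chains sit between 1.03 and 1.17 and their grey bars stay above 0.7, while the bars of C4b and Serping1 cross 0.

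All 9 members had their highest value in KO replicate 3, as did 15.9% of all tested genes. The same library was the highest for 14 of 14 tested interferon stimulated genes, whose median log2 difference was 0.61; Bst2, an interferon-induced membrane protein gene, was at 9.57, 4.25 and 26.0 FPKM in KO and 6.57, 3.63 and 5.25 FPKM in WT. Serping1, C3 and C4b are known to be induced by interferon, and the part of this in their values was not tested.

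Of 20 microglia and macrophage markers 13 were tested, and 0 passed over all genes. The mean log2 level was higher in KO for 13 of the 13, where it was for 5856 of all 12045 tested genes, and the median log2 difference was 0.56. In 2 of the 13 every KO library was above every WT library, against 2.03% of all tested genes, and the other 11 overlapped. Among these markers WT replicate 1 covered 17.1% of Ptprc and 31.9% of Aif1, which lowers its values there, and 90.8% of Csf1r and 88.5% of Laptm5. In bulk RNA more cells of a type and more RNA per cell cannot be told apart. Tyrobp, a signalling adaptor of myeloid receptors, was at 39.6, 37.8 and 44.1 FPKM in KO, against 35.9, 22.5 and 29.8 FPKM in WT. Ctss, a macrophage protease, was at 56.6, 47.3 and 100.9 FPKM in KO and 49.0, 33.9 and 58.3 FPKM in WT, and Cd68, a lysosomal protein, at 84.7, 183.1 and 117.5 FPKM in KO and 31.7, 115.3 and 93.7 FPKM in WT. Gpr34 and Siglech were listed at 0 in all 6 libraries, and P2ry12, a homeostatic microglial gene, was at 0.157, 0 and 0.281 FPKM in KO and 0 in all WT libraries. Tmem119, another such gene, was at 1.12, 0.842 and 0.944 FPKM in KO, against 0.522, 0.631 and 0.594 FPKM in WT.

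Relative to single myeloid genes the C1q chains behaved differently by denominator. Summed C1q over Csf1r, the receptor that keeps macrophages alive, was 5.63, 10.3 and 7.76 in KO and 5.19, 9.84 and 5.65 in WT, with overlap between genotypes and the KO library higher in each same-numbered pair. Over Tyrobp it was 1.04, 1.31 and 2.30 in KO and 0.798, 1.03 and 0.858 in WT, and over Ctss 0.726, 1.05 and 1.01 in KO and 0.585, 0.682 and 0.439 in WT, with every KO library above every WT library. Over Laptm5, a lysosomal protein of blood cells, it was 4.86, 5.19 and 7.04 in KO and 4.72, 4.64 and 4.12 in WT. In group means the genotype difference in C1q was thus smaller against Csf1r and Laptm5 than against Tyrobp or Ctss. Against Laptm5 every KO library was still above every WT library, with means of 5.695 in KO and 4.493 in WT. How much of the difference in C1q follows the myeloid share was not tested.

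**Figure D4:**
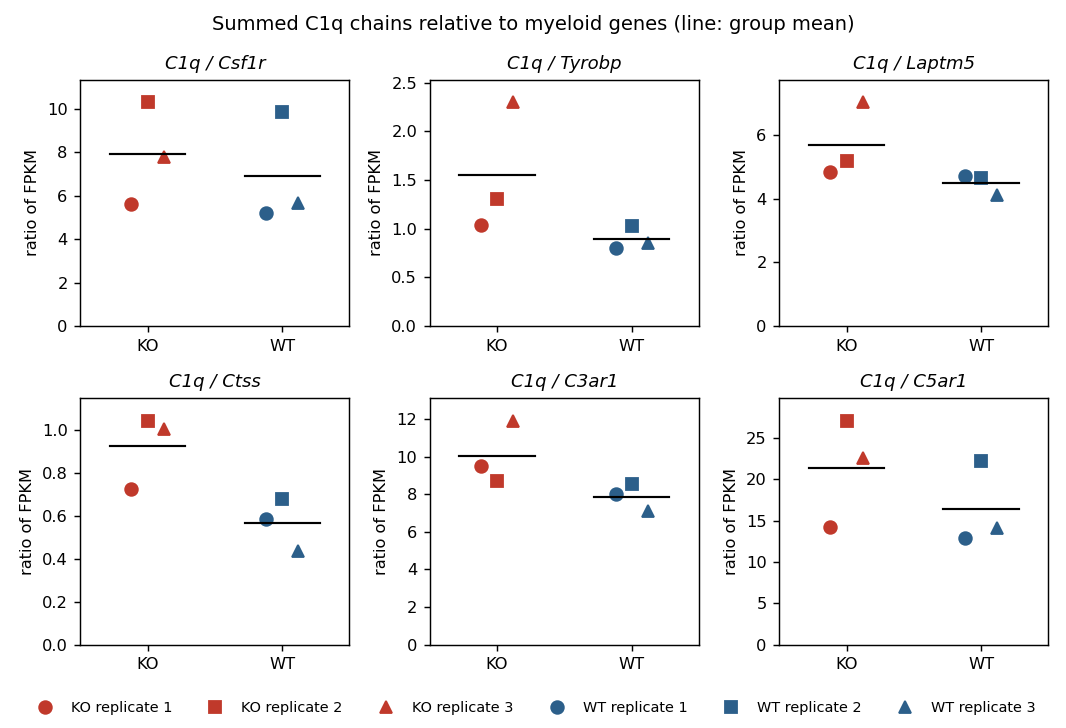
Ratio of the summed FPKM of C1qa, C1qb and C1qc to the FPKM of 4 myeloid markers and 2 complement receptor genes (vertical axes, linear from 0) in KO libraries (left, red) and WT libraries (right, blue), with the line at the group mean. Against Csf1r and C5ar1 the genotypes overlap, and against Tyrobp, Laptm5, Ctss and C3ar1 all KO symbols lie above all WT symbols.

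Markers of border macrophages and monocytes summed over 10 genes to 20.3, 13.2 and 35.8 FPKM in KO and 6.98, 6.17 and 16.1 FPKM in WT. Of these 5 were tested and 5 had higher means in KO, with 0 called. WT replicate 1 covered 14.2% of Mrc1 and 29.3% of F13a1, against 88.6% to 97.5% and 89.2% to 95.9% in KO. Unassembled bases lower its values for these genes. Ms4a7 was covered alike, at 47.7% in WT replicate 1 and 45.9% to 53.7% in KO. Ms4a7 was at 6.91, 3.72 and 12.8 FPKM in KO and 3.56, 3.44 and 5.64 FPKM in WT, Pf4 at 10.7, 2.07 and 10.5 FPKM in KO and 0, 0.797 and 3.07 FPKM in WT, and S100a9 at 0, 3.42 and 2.61 FPKM in KO and 2.25, 0 and 2.39 FPKM in WT; Lyve1, Ccr2 and Ly6c2 were listed at 0 in all 6. Astrocyte markers, summed over 10 genes, overlapped between genotypes, at 240, 454 and 743 FPKM in KO and 183, 566 and 575 FPKM in WT. Gfap, the intermediate filament of astrocytes, had the highest mean of them. It was lowest in both replicate 1 libraries, at 57.9 FPKM in KO and 32.1 FPKM in WT. Of 9 tested astrocyte markers 5 were higher in KO and 4 lower in mean log2 level, with a median log2 difference of 0.20. KO replicate 3 was the highest library for 5 of the 9, against 15.9% of all tested genes. The sum of fibroblast, meningeal and pericyte genes was 74.8, 83.6 and 154 FPKM in KO and 69.1, 127 and 118 FPKM in WT. Endothelial markers summed to 23.9, 15.7 and 7.48 FPKM in KO and 21.2, 7.71 and 7.50 FPKM in WT, and neuron markers to 336, 330 and 295 FPKM in KO and 468, 339 and 303 FPKM in WT. The part of any of these cell types in the complement values was not tested.

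The genes with a pattern closest to C1q over the 6 libraries were sought among 10833 genes at 2 FPKM or more in mean, by the root mean square difference of log2(FPKM + 1) values centred on each gene's own mean. The closest were Fyb, a haematopoietic adaptor (0.24), Laptm5 (0.24), Ptpn6, a phosphatase of blood cells (0.26), Ncf1, a subunit of the phagocyte oxidase (0.31), and Pex16, a peroxisome biogenesis gene (0.33). Among members, C3ar1 ranked 3 (0.26) and C5ar1 ranked 22 (0.38). Other myeloid markers lay far from the pattern, with Cd53, a tetraspanin of blood cells, at rank 389 (0.58), Fcer1g, an immune receptor subunit, at 4141 (0.69) and Cd68 at 9054 (0.82). For the closest genes the 6 points include KO replicate 3, high in all of them, so this is a description of these libraries.

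The rest of the complement system was given by 47 further genes, of which 17 were tested. In KO the mean was higher for 12 and lower for 5, and 0 passed the adjusted threshold. At an unadjusted limma p under 0.05, 0 were higher, against 0.913% of all tested genes, and 0 were lower, against 0.706%. Every KO library was above every WT library for 0, against 2.03% of all tested genes, and below for 0, against 3.03%. At shares this small, counts of 0 do not set these 17 genes apart from all genes. The median log2 difference of the 17 was 0.12. A further 17 of the 47 were listed at 0 in all 6 libraries, among them 5 of the 6 terminal pathway genes (C8g, the sixth, was at 0.353 FPKM in KO replicate 2 and 0 elsewhere) and C1s1, a protease of the C1 complex; its partner C1ra was at 0, 0.142 and 0.128 FPKM in KO and 0 in all WT libraries. The proteases that C1q activates were therefore at or near 0 in libraries where the C1q chains stood at 6.11 FPKM or more.

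**Figure D5:**
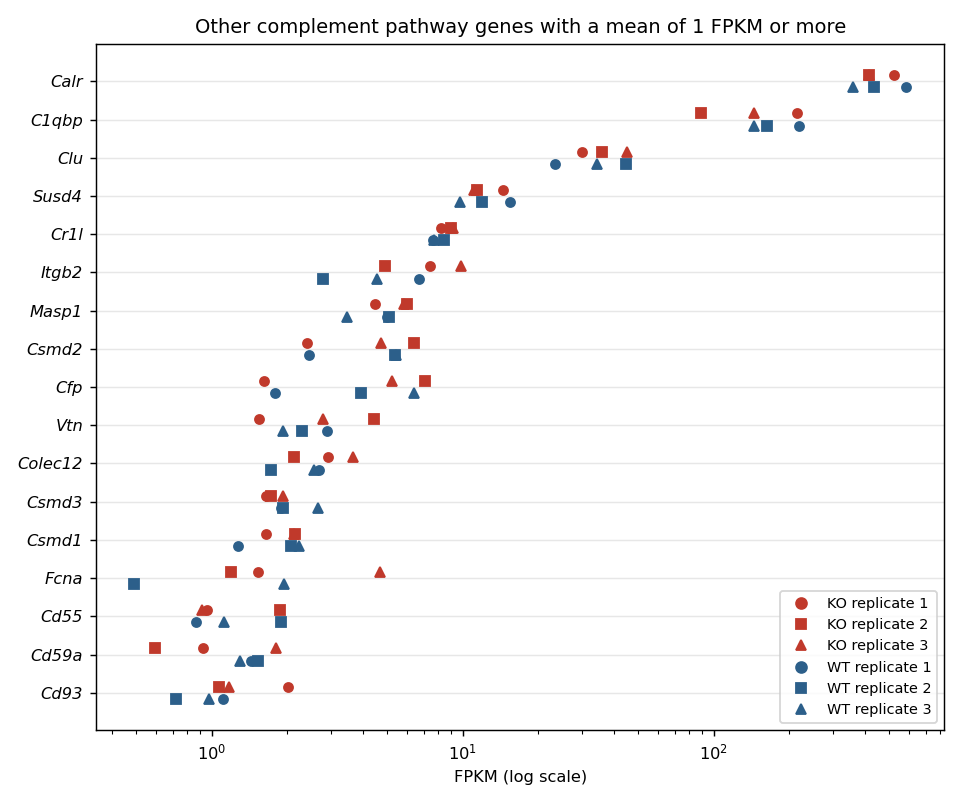
Level in FPKM (horizontal axis, log scale) of the 17 tested complement genes outside the list of 9, with KO libraries in red (upper symbols of each row) and WT libraries in blue (lower symbols). No gene separates the genotypes; a value listed at 0 (Fcna in WT replicate 1) cannot be drawn on this axis.

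By role, the lectin branch was represented by Masp1, a protease, at 4.47, 6.02 and 5.82 FPKM in KO and 5.00, 5.07 and 3.45 FPKM in WT (difference in log2 of 0.23 ± 0.18 SE, limma adjusted p = 0.9999), and by the collectin Colec12 at 2.13 to 3.66 FPKM in KO and 1.72 to 2.68 FPKM in WT. Properdin, the stabiliser of the alternative pathway convertase encoded by Cfp, was at 1.62, 7.08 and 5.22 FPKM in KO and 1.78, 3.95 and 6.40 FPKM in WT, low in both replicate 1 libraries. C2, the partner of C4 in the classical convertase, was at 0.677, 0.364 and 2.43 FPKM in KO and 0.412, 0.194 and 0.766 FPKM in WT. The highest members of the receptor list were Calr, a chaperone that can also bind C1q, at 414 to 522 FPKM in KO and 358 to 583 FPKM in WT, and C1qbp, a mainly mitochondrial C1q-binding protein, at 88.8 to 214.5 FPKM in KO and 145 to 219 FPKM in WT. Both have functions in every cell, and both overlapped between genotypes.

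The tested regulators that protect cells from complement all overlapped between genotypes. Clu, clusterin, was at 29.8, 35.8 and 45.1 FPKM in KO and 23.4, 44.9 and 34.4 FPKM in WT, and Vtn, vitronectin, at 1.55, 4.44 and 2.78 FPKM in KO and 2.88, 2.29 and 1.92 FPKM in WT. Susd4 was at 11.1 to 14.5 FPKM in KO and 9.78 to 15.5 FPKM in WT (difference in log2 of 0.0012 ± 0.19 SE, limma adjusted p = 0.9999). Cr1l, the rodent membrane regulator Crry, was at 8.22, 8.98 and 9.14 FPKM in KO and 7.64, 8.45 and 7.71 FPKM in WT (difference in log2 of 0.13 ± 0.10 SE, limma adjusted p = 0.9999). Of the GPI-anchored regulators, the class of protein that GDE enzymes act on, Cd55 was at 0.957, 1.87 and 0.913 FPKM in KO and 0.868, 1.89 and 1.12 FPKM in WT, and Cd59a at 0.921, 0.592 and 1.80 FPKM in KO and 1.43, 1.53 and 1.29 FPKM in WT. Both overlapped between genotypes, and RNA levels do not show how much of either protein is at the surface.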

How the data were processed

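The tools listed in the submitters' processing notes are TopHat2 2.1.1, Cufflinks and Cuffdiff 2.2.1 and FastQC, with the mm10 build; strand settings are not given in the sources used here. The deposited files are 1 Cufflinks assembly per library with FPKM per transcript, per the file headers; no counts are in them, so no count model was used. Transcripts of 300 nt or more were matched to the GENCODE M21 basic annotation (protein-coding and long noncoding genes with 200 or more exonic bases that no other gene shares). A gene's value is the mean over these bases of the FPKM of the transcripts covering each. Parts that were not assembled lower this average. A 0 means that no transcript of 300 nt or more covered these bases, though shorter pieces, or pieces on shared bases, can be present. limma 3.58.1 (R 4.3.3) compared log2(FPKM + 1) between genotypes, with a trended prior, two-sided, for genes averaging at least 1 FPKM, and p-values were Benjamini-Hochberg adjusted at 0.05. The code was tested on simulated data.

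The members, lists and gene value were chosen with earlier results of these data known. Named genes were all members, the top 2 by mean of each other complement list, the top 3 of each marker list, markers at 0 throughout, and the 5 patterns closest to C1q, leaving out C3ar1 as a member; of these the top genes of the endothelial, fibroblast and neuron lists are given as sums, and Olig1, Gfap and Bst2 stand for their lists. Itgb2, Csf1r, Laptm5 as a denominator, P2ry12, Tmem119, Cd53, Fcer1g, C1ra, C1s1, C4a, Cd55, Cd59a, the neighbours of C1q, Xist, Ddx3y and Mki67 were named after their values were seen. Same-numbered libraries deviated together across genes (r = 0.369, 0.197 and 0.293 for numbers 1, 2 and 3), so the title numbers were taken as pairs and fits with a replicate block were added.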

Additional observations from a re-analysis of the deposited data

How the results depend on the processing

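Over 19 alternatives (pseudocounts, filters, scaling, the replicate block, gene values, array weights, each library left out, both replicate 1 libraries left out, and shared exonic bases included, the last chosen after seeing the data) 0 members and 0 other complement genes were called, and the lowest limma adjusted p of a member was 0.636 (C1qb without KO replicate 1). The replicate block changed no call: 0 members passed with it, with a limma adjusted p of 0.809 for each of the 7 tested. The median log2 difference of the C1q chains ran from 0.74 to 1.45, and with each library left out from 0.74 to 1.38; the ranges with each library left out were 0.33 to 0.82 for the receptors, 0.08 to 0.62 for C3 and C4b, and -0.20 to 0.028 for Serping1.

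With FPKM summed over transcripts, which counts a fragmented gene several times, the receptor median was -0.21, C5ar1 -0.65, Itgam -0.21, C3 -1.58 and Serping1 -0.55, where the median of all genes was -0.25. With a pseudocount of 5 the receptor median was 0.26, as a larger pseudocount shrinks low genes. Over assembled bases only Serping1 was at -0.39, and with no minimum transcript length C3 was at -0.10; the cause was not tested. C4b was at -0.11 without KO replicate 3 and -0.31 without WT replicate 1. Serping1 was at 0.028 without KO replicate 1, 0.0035 without KO replicate 2 and 0.045 without both replicate 1 libraries. The number of reads is unknown, so no interval from counts was made for genes near 1 FPKM. Their transcripts do carry FPKM intervals in the authors' assembly, which cover error within that library alone. For 1 C4b piece in KO replicate 1 it was 0.397 to 1.08 FPKM.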

Other observations

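Genes of other secreted proteins with a C1q-type domain, outside complement, were set beside the C1q chains after seeing the data. Of 16 quantified genes of the C1ql, C1qtnf and Cbln families 9 were tested, 4 were higher in KO, and 0 were called. Every KO library was above every WT library for 0 of the 9, against 2.03% of all tested genes. The reverse held for 1, C1qtnf1 (0.772 to 1.06 FPKM in KO, 1.08 to 1.76 FPKM in WT), against 3.03% of all tested genes. With 9 genes these counts are too small to set against such shares. The highest was C1ql1, a gene known from OPCs, at 37.1, 29.8 and 24.1 FPKM in KO replicates 1 to 3 and 36.3, 34.9 and 26.2 FPKM in WT (difference in log2 of -0.10 ± 0.20 SE, limma adjusted p = 0.9999). C1ql3 was at 6.87, 5.46 and 7.06 FPKM in KO and 5.81, 5.43 and 10.2 FPKM in WT, and C1ql2 at 7.32, 5.64 and 4.83 FPKM in KO and 10.4, 6.83 and 4.40 FPKM in WT. C1ql4 and C1qtnf7 were listed at 0 in all 6 libraries. C1ql1, in contrast to C1qa, C1qb and C1qc, was thus highest in both replicate 1 libraries and overlapped between genotypes.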
